A study of Nothobranchius furzeri with 2 samples.

Results

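Liver and muscle of control females of the turquoise killifish *Nothobranchius furzeri* were compared gene by gene. The members were the 10 control female liver libraries and the 10 control female muscle libraries, 20 of the 80 libraries in the deposited table, each tissue with 5 libraries at 1.5 months and 5 at 3 months. They were chosen by the tissue, sex, treatment and age in the column names. The fish were of the inbred GRZ strain. Control fish came from embryos injected at the one-cell stage with a standard control morpholino, and the 20 germ cell-removed female libraries of the same tissues and ages, used in the last comparison, came from embryos injected with a morpholino against dnd, a gene that primordial germ cells need. The question was which of the 18529 lines with a gene identifier, of 20406 lines in all, differed between the tissues, with age as a covariate.

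The liver makes most blood plasma proteins, keeps blood glucose up by gluconeogenesis, breaks down amino acids and makes cholesterol and bile acids. In egg-laying females it also makes vitellogenins, the yolk precursors, and egg envelope proteins under the control of estrogen, and the blood carries them to the ovary. In many bony fishes exocrine pancreas lies along or within the liver. Fast skeletal muscle contracts by the sliding of myosin thick filaments along actin thin filaments, is switched on by calcium from the sarcoplasmic reticulum, and is fuelled by phosphocreatine, glycogen and mitochondria.

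Each library counted the 3′ ends of messenger RNAs by unique molecular identifiers (UMIs), so that levels do not scale with gene length. Depth was 28062 to 180764 counts in livers (median 73427), against 154891 to 221897 in muscles (median 178054), and 3 counts, taken as the detection floor, stood for 16.6 to 107 CPM (counts scaled to a common library total) in livers and 13.5 to 19.4 CPM in muscles. CPM values below are scaled by the trimmed mean of M-values (TMM), whose factors were 0.78 to 2.18 in livers and 0.65 to 1.07 in muscles. In livers the factor went with depth: it was highest, 2.18, at 28062 counts and lowest, 0.78, at 180764 counts. The part of this in the liver CPM ranges and age differences below was not tested. All livers were amplified in 1 pool and all muscles in another, so tissue and pool cannot be told apart. The column names give the control livers as not sampled and the control muscles as sampled to a fixed number of reads, whereas the methods of the study describe sampling for female livers as well. The disagreement could not be settled here. Replicates of 1 tissue and age were never copies of each other: the lowest chi-square over its degrees of freedom was 1.46 in 40 pairs.

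The tissue labels were checked against marker genes. All 16 tested hepatocyte markers were higher in liver, and these markers took 2.98 to 4.58% of the counts of each liver library, against 0.00103 to 0.137% in muscles. Of 16 tested skeletal muscle markers, all were higher in muscle and 14 had 0 counts in the 10 livers. Tested genes had at least 10 counts over the 20 libraries, so the calls of these 14 were fixed. The same holds for 2 hepatocyte markers with 0 counts in muscles. The summed share of the skeletal muscle markers was 0 to 0.00356% in livers and 9.47 to 15.2% in muscles. All 17 tested exocrine pancreas markers were higher in liver, where they took 1.21 to 5.54% of the counts, against 0.0177 to 0.202% in muscles. INS, which encodes insulin, was also counted in livers, at 50.9 to 396 CPM (median 221), against 0 to 30.3 CPM (median 2.35) in muscles. Of other cell types, keratinocyte and epithelium markers were higher in liver at 1 and lower at 3 of 8 tested members, with KRT5, a skin keratin, at 114 to 430 CPM in livers and 620 to 4731 CPM in muscles. Immune markers were higher in liver at 4 and lower at 2 of 8, endothelial markers lower at 3 of 5, red cell markers higher at 1 of 4, and adipocyte markers higher at 1 and lower at 1 of 4. Over all tested genes 15.5% were higher in liver and 32.3% lower, and counts on so few markers are no measure of cell content. The liver libraries thus held transcripts of pancreatic genes, and the part of these cells in the other liver values was not tested.

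Of the 18529 lines, 7142 had at least 10 counts over the 20 libraries and were tested with the quasi-likelihood test of edgeR, 11387 fell below that minimum, and 4170 of these were at 0 in every library. At an adjusted p (Benjamini-Hochberg) under 0.05, 1106 genes were higher in liver, which is 15.5% of the tested genes, and 2304 were higher in muscle, or 32.3%. Fold changes are given on the log2 scale as liver over muscle. Among the calls, 775 were higher in liver by 2 or more on this scale and 1613 lower by 2 or more. The livers lay wholly above the muscles at 342 tested genes (4.79%), and wholly below at 701 (9.82%). A gene that passed the count minimum only through the tissue where it was high had to differ: 745 tested genes had 0 counts in all livers and 115 had 0 counts in all muscles, and all of them were called. The median log2 fold change of all tested genes was −0.62, so equal levels on the TMM scale lie above the middle of the distribution. With plain library sizes this median moved by 0.38, and the calls became 1446 higher in liver and 1790 higher in muscle.

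**Figure D1:**
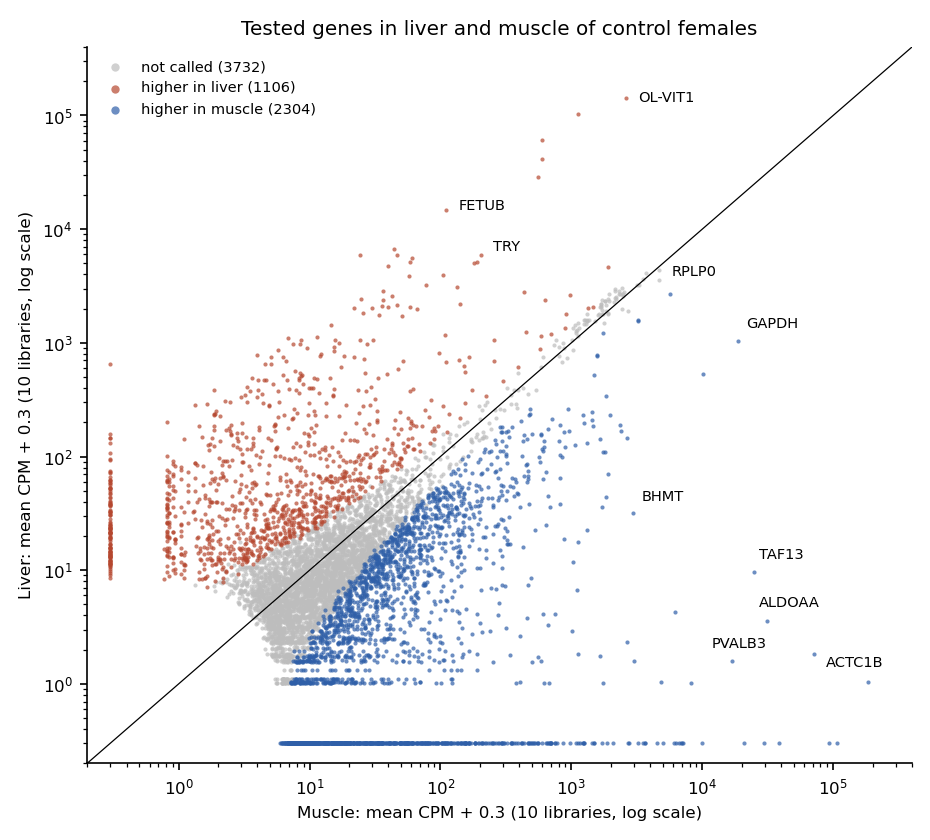
Each point is 1 of the 7142 tested genes, with its mean TMM-scaled CPM plus 0.3 over 10 liver libraries on the vertical axis and over 10 muscle libraries on the horizontal axis, both on log scales. Red points were higher in liver (1106), blue points higher in muscle (2304) and grey points not called (3732). The row of points at the bottom holds genes with 0 counts in every liver, among them some of the most counted muscle genes.

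The genes were read in 25 lists by role, with 843 lines in all, of which 618 were tested and 225 were below the count minimum. Counts of list members below are over tested members only and describe them. Where members had 0 counts in a tissue, a second median sets them to their bound. Of the 618 tested, 107 had 0 counts in livers and 27 in muscles, and the calls of these were fixed by the count minimum.

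The liver transcriptome of these females was led by the precursors of yolk and egg envelope. OL-VIT1, vitellogenin 1, lies on the plus strand of sgr17 from 21579452 to 21613569 and took 16.5% of a liver library on average. It measured 79800 to 221700 CPM in livers (median 131500), against 79.7 to 11830 CPM in muscles (median 1236), a log2 fold change of 6.18 ± 0.58 (SE; edgeR adjusted p = 2.78e-13). The highest muscle library stayed below the lowest liver library. OLA.16036, annotated as vitellogenin II, was at 16900 to 44950 CPM in livers (median 25210) and 7.97 to 2556 CPM in muscles (median 298). VTG3, a phosvitin-free vitellogenin, was at 2887 to 8537 CPM in livers (median 4537) and 0 to 271 CPM in muscles (median 34.0). The 3 vitellogenin lines together took 14.96 to 23.2% of each liver library, against 0.00569 to 1.56% of each muscle library.

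The egg envelope genes followed the same order. OLA.8666, annotated as L-SF precursor, a choriogenin of medaka, measured 29950 to 94730 CPM in livers (median 59640), against 14.1 to 2894 CPM in muscles (median 287). OLA.19919 on line Nfu_g_1_007921, choriogenin Hminor, measured 23690 to 61840 CPM in livers (median 40230), against 15.95 to 3076 CPM in muscles (median 300). A second line of that name, Nfu_g_1_019450, had 5 counts in livers and 8 in muscles and is therefore near the floor in both. The 4 lines grouped as egg envelope lines took 9.47 to 12.4% of liver counts and 0.00403 to 0.638% of muscle counts. The fourth was CUZD1, annotated only as having CUB and zona pellucida-like domains, with 2 counts in livers and 9 in muscles. Nfu_g_1_012216, a protein-coding line without a name, took 12.02% of a liver library on average and measured 56390 to 148600 CPM in livers, against 7.97 to 5418 CPM in muscles. ESR1 on line Nfu_g_1_018712, an estrogen receptor, was at 65.3 to 209 CPM in livers (median 149) and 6.41 to 47.8 CPM in muscles (median 22.2), which is 2.69 ± 0.31 higher in liver on the log2 scale (edgeR adjusted p = 1.24e-10). The other ESR1 line had 0 counts in both tissues. VASA, a germ cell gene, had 0 counts in livers and 1 in muscles, and the 2 lines of DND, the gene targeted in germ cell-removed fish, had 1 count or fewer in livers and 3 or fewer in muscles.

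All 25 tested genes of secreted plasma proteins were higher in liver, 23 of them also by DESeq2, with a median log2 fold change of 5.87 (5.83 at the bound) beside −0.62 over all tested genes. AHSG, the carrier protein fetuin A, measured 1943 to 10000 CPM in livers (median 5918), against 0 to 88.1 CPM in muscles (median 8.44). Its log2 fold change was 7.83 ± 0.41 (edgeR adjusted p = 7.46e-23). FETUB, fetuin B, which in mammals keeps the egg coat from hardening too early, measured 6036 to 23030 CPM in livers (median 13850), against 0 to 531 CPM in muscles (median 77.7). TFA, the iron carrier transferrin, measured 1843 to 10740 CPM in livers (median 5357), against 0 to 187 CPM in muscles (median 22.0). HPX (1 OF 2), the heme carrier hemopexin, was 6.42 ± 0.36 higher in liver on the log2 scale. In each of these genes the lowest liver library lay above the highest muscle library.

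Of 12 tested apolipoprotein genes, 10 were higher in liver and 1 was lower, with a median of 5.20. APOA1, the main protein of high-density lipoprotein, measured 3377 to 11740 CPM in livers (median 5953), against 0 to 198 CPM in muscles (median 15.8). APOB (2 OF 4), which carries very-low-density lipoprotein, had a log2 fold change of 5.70 ± 0.36. The member lower in liver was APOOA (−1.997 ± 0.318; edgeR adjusted p = 3.75e-07), whose protein is known as a part of the mitochondrial inner membrane.

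Of 21 tested coagulation genes, 20 were higher in liver, with a median of 5.87 (5.81 at the bound). FGB and FGG, 2 chains of fibrinogen, had log2 fold changes of 5.94 ± 0.38 and 5.74 ± 0.41, and PLG, plasminogen, one of 6.63 ± 0.37. The exception was PROZA, protein Z, with 2 counts in livers and 37 in muscles. Of 19 tested complement genes, 15 were higher in liver, 3 were lower and 1 was not called, with a median of 5.68 (5.65 at the bound). C2 (2 OF 2) on line Nfu_g_1_005173 measured 753 to 1780 CPM in livers (median 1099), against 0 to 41.6 CPM in muscles (median 0). C9, the pore-forming end of the pathway, was 5.92 ± 0.39 higher in liver. The 3 members lower in liver were C7A (1 count in livers, 13 in muscles), CFP (5 and 50), the activator properdin, and CFD (0 and 22), complement factor D, which fat cells are known to secrete in mammals.

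**Figure D2:**
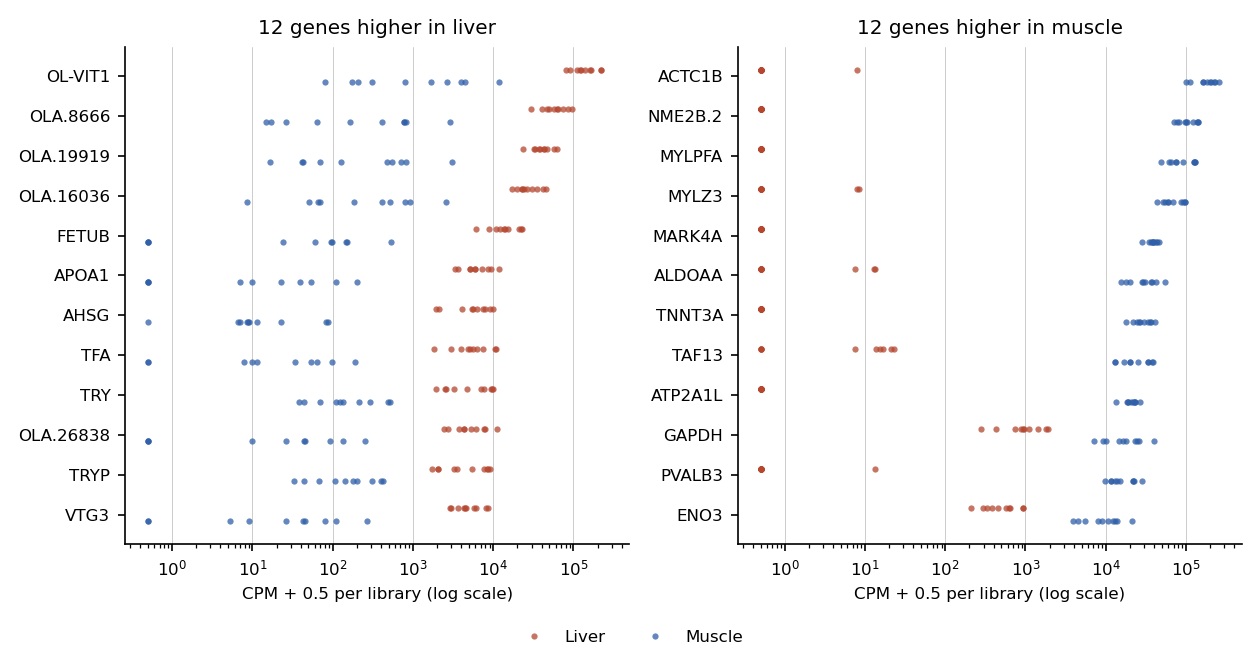
TMM-scaled CPM plus 0.5 on a log scale, in each of 10 liver libraries (red) and 10 muscle libraries (blue). On the left are the 12 most counted genes with a symbol that were higher in liver without overlap. On the right are the 12 with a symbol that were higher in muscle without overlap. Lines without a name, such as Nfu_g_1_012216, were left out. Liver-higher genes such as OL-VIT1 kept counts in most muscle libraries, whereas MYLPFA, NME2B.2, MARK4A, TNNT3A and ATP2A1L had 0 counts in every liver library and sit at the left edge.

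Genes of glucose output were higher in liver at 11 of 12 tested members (median 4.26, or 3.95 at the bound). G6PCA.2, a glucose-6-phosphatase that frees glucose for the blood, measured 1301 to 2709 CPM in livers (median 1644), against 0 to 260 CPM in muscles (median 6.91). FBP1B, the liver fructose bisphosphatase, measured 506 to 1421 CPM in livers (median 678), against 0 to 41.6 CPM in muscles (median 0). PCK1, phosphoenolpyruvate carboxykinase, had 105 counts in livers and 6 in muscles, a log2 fold change of 4.70 ± 0.55. The exception was PFKFB1, which makes and breaks the signal fructose 2,6-bisphosphate, with 0 counts in livers and 79 in muscles, at least 16.1-fold higher in muscle. Bounds of this kind use a floor of 3 counts over the 10 libraries of the tissue at 0.

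Bile acid and cholesterol synthesis had 11 of 13 tested members higher in liver and 0 lower (median 4.08). HMGCRA, the rate-limiting enzyme of cholesterol synthesis, measured 81.6 to 460 CPM in livers (median 312), against 0 to 26.0 CPM in muscles (median 0). MSMO1, a later step, was 5.18 ± 0.37 higher in liver. CYP8B1, which sets the ratio of bile acids, had 245 counts in livers and 3 in muscles, a pooled ratio of 133 (95% counting interval 45.1 to 651). Cytochromes P450 and conjugating enzymes were higher in liver at 17 of 18 tested members (median 3.48, or 3.27 at the bound), with GSTT1A, a glutathione transferase, at 6.16 ± 0.41. ADH5, the formaldehyde-handling alcohol dehydrogenase, was the member not called (−0.52 ± 0.24; edgeR adjusted p = 0.0609).

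Of 36 tested genes of amino acid breakdown and the urea cycle, 26 were higher in liver, 6 were lower and 4 were not called (median 3.83, or 3.14 at the bound). HPDA, an enzyme of tyrosine breakdown, measured 343 to 1542 CPM in livers (median 842), against 0 to 12.1 CPM in muscles (median 7.04). MAT1A, the liver methionine adenosyltransferase, was 4.01 ± 0.29 higher in liver. The 6 members lower in liver included BHMT, betaine-homocysteine methyltransferase, best known as a liver enzyme in mammals. BHMT measured 0 to 80.3 CPM in livers (median 32.5), against 2138 to 4061 CPM in muscles (median 2966), so the groups lay far apart (−6.36 ± 0.30; edgeR adjusted p = 1.07e-24). GOT1 (1 OF 2) and GOT2, the cytosolic and mitochondrial aspartate aminotransferases of the malate-aspartate shuttle, were at −6.88 ± 0.35 and −2.37 ± 0.20. ASS1 and ASL, which make and split argininosuccinate, had 9 and 5 counts in livers, against 171 and 54 in muscles. CPS1 had 0 counts in livers and 30 in muscles.

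Of 11 tested transcription factors and nuclear receptors of the liver list, 8 were higher in liver, 1 was lower and 2 were not called (median 4.04, or 3.29 at the bound). A1CF, a cofactor of apolipoprotein B mRNA editing in mammals, measured 179 to 795 CPM in livers (median 502), against 0 to 31.2 CPM in muscles (median 0). FOXA3, a forkhead factor of liver genes, was 4.04 ± 0.61 higher in liver with 60 counts in livers and 4 in muscles. ESRRA, a regulator of mitochondrial genes, was lower in liver with 5 counts in livers and 47 in muscles (−2.47 ± 0.62). Fatty acid and triglyceride synthesis was mixed, with 7 of 15 members higher in liver, 3 lower and 5 not called. ACACA, acetyl-CoA carboxylase, was 2.21 ± 0.44 higher in liver with overlapping libraries. Of 14 iron and heme genes, 3 were higher in liver, 1 was lower and 10 were not called, FTL (a ferritin chain) at 0.17 ± 0.27.

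Contractile genes were near or at 0 in the livers. All 24 tested thick filament genes were lower in liver, with a fitted median of −7.14, or −5.43 at the bound, and 42 of 44 thin filament and Z-disc genes were lower in liver (−6.84, or −5.59 at the bound). Of these, 22 thick filament and 31 thin filament and Z-disc genes had 0 counts in livers, so their calls were fixed by the count minimum. Over all tested genes 32.3% were lower in liver. ACTC1B, a sarcomeric actin, lies on the plus strand of sgr07 from 2272386 to 2275004 and took 14.6% of a muscle library on average. It had 1 count in the 10 livers, against 98630 to 257900 CPM in muscles (median 191600), and the pooled muscle level was 162600 times the liver level, with a 95% counting interval of 29180 to 6422000. MYLZ3, a fast myosin light chain, had 2 counts in livers and 102950 in muscles. MYLPFA, the phosphorylatable fast myosin light chain, had 0 counts in livers and 48620 to 130300 CPM in muscles (median 83030), at least 26850-fold higher in muscle. TNNT3A, fast troponin T, had 0 counts in livers and 42821 in muscles, at least 8743-fold higher in muscle. TTNB, a titin that spans the sarcomere from Z-disc to M-band, had 0 counts in livers and 9056 in muscles.

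Calcium handling and excitation genes were lower in liver at 28 of 33 tested members, higher at 3 and not called at 2 (median −5.92, or −4.66 at the bound). Of the 33, 19 had 0 counts in livers. PVALB3, a parvalbumin that buffers calcium in fast fibres, had 1 count in livers, against 9712 to 28520 CPM in muscles (median 14280). CASQ1A on line Nfu_g_1_020067, the calcium store calsequestrin, had 0 counts in livers and 8783 in muscles, at least 1793-fold higher in muscle. ATP2A1L, a calcium pump of the sarcoplasmic reticulum, had 0 counts in livers and 32378 in muscles. The members higher in liver were ATP2A2B, a pump that most cells use, at 1.18 ± 0.32 and 2 lines of ASPH, an aspartate hydroxylase of the endoplasmic reticulum, at 2.63 ± 0.57 and 1.94 ± 0.81.

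Of 32 tested genes of muscle glycolysis and glycogen, 24 were lower in liver, 1 was higher and 7 were not called (median −3.93, or −3.62 at the bound). GAPDH measured 277 to 1918 CPM in livers (median 951), against 7040 to 39830 CPM in muscles (median 16990), a difference of −4.14 ± 0.26 (edgeR adjusted p = 8.32e-20). ENO3, the muscle enolase, was at −4.19 ± 0.26. ALDOAA, the muscle aldolase, had 3 counts in livers and 44177 in muscles. PKMB, pyruvate kinase, had 0 counts in livers and 10454 in muscles, at least 2134-fold higher in muscle. Of 11 genes of phosphocreatine and adenylate buffering, 7 were lower in liver and 2 higher: CKMB, the muscle creatine kinase, had 0 counts in livers and 10008 in muscles, whereas CKB (1 OF 3), the brain-type enzyme, was 2.32 ± 0.32 higher in liver and CKMT1, a mitochondrial one, had 31 counts in livers and 2 in muscles. CKMT2 (1 OF 2), the sarcomeric mitochondrial creatine kinase, had 1 count in livers and 6931 in muscles.

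Mitochondrial genes were lower in liver too, by smaller steps. Of 66 tested genes of oxidative phosphorylation, 63 were lower in liver, 1 was higher and 2 were not called, with a median of −2.55 beside −0.62 over all genes. COX5B2, a subunit of cytochrome c oxidase, measured 39.6 to 245 CPM in livers (median 102.7), against 1384 to 2325 CPM in muscles (median 1724). ATP5B, the catalytic subunit of ATP synthase, was at −2.38 ± 0.21, and its libraries did not overlap either. The member higher in liver was COX6B1, with 15 counts in livers and 2 in muscles. Of 16 tested genes of mitochondrial fatty acid oxidation, 10 were lower in liver, 0 were higher and 6 were not called (median −1.20). HADHB, a subunit of the trifunctional protein, was at −2.22 ± 0.29. ACSL1, which activates fatty acids, was not called (0.44 ± 0.27; edgeR adjusted p = 0.170).

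Collagen and matrix genes were lower in liver at 26 of 32 tested members, higher at 1 and not called at 5 (median −4.23, or −4 at the bound). COL1A2, a chain of type I collagen, measured 10.2 to 77.7 CPM in livers (median 47.7), against 325 to 3432 CPM in muscles (median 1809). The muscle level of this list differed with age, and it took 0.234 to 0.415% of muscle counts at 3 months and 0.787 to 0.980% at 1.5 months, with no overlap. FN1B, a fibronectin, went the other way at 2.66 ± 0.27 and is known as a plasma protein made by liver. Of 15 tested myogenic regulators, 13 were lower in liver (median −3.80, or −3.26 at the bound), among them MYF6 with 0 counts in livers and 92 in muscles. Of the 15, 9 had 0 counts in livers, so their calls were fixed by the count minimum. PROX1, a homeobox factor of both liver and slow muscle, was the member higher in liver, with 18 counts in livers and 0 in muscles. Of 10 tested atrophy and autophagy genes, 6 were lower in liver (median −2.55, or −1.76 at the bound), and 4 of the 10 had 0 counts in livers. TRIM63 (2 OF 2), the ubiquitin ligase MuRF1, had 0 counts in livers and 362 in muscles, whereas CTSL on line Nfu_g_1_017170, a lysosomal protease, was 1.05 ± 0.28 higher in liver.

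Genes that every cell uses were read next. They also enter the TMM scaling, so their levels are no independent reference for it. Of 75 tested cytosolic ribosomal protein genes, 6 were higher in liver, 1 was lower and 68 were not called, with a median of 0.20. RPLP0, a ribosomal stalk protein, measured 1697 to 6968 CPM in livers (median 4313), against 2868 to 6483 CPM in muscles (median 4779), with full overlap (−0.07 ± 0.21; edgeR adjusted p = 0.791). The number of calls in this family depended on the scaling and tool: 69 of the 75 were higher in liver with plain library sizes, where RPLP0 was at 0.42, 28 with relative log expression (RLE) factors, 10 with genes over 1% left out and 41 with DESeq2, with 1 to 5 lower and a median of 0.15 to 0.69. RPL19 (2 OF 2), the member lower in liver, was at −1.05 ± 0.22. The ER secretory pathway, by contrast, had 31 of 38 members higher in liver, 1 lower and 6 not called (median 2.33). P4HB, the protein disulfide isomerase, measured 1289 to 3146 CPM in livers (median 1975), against 87.4 to 250 CPM in muscles (median 131). SEC61B, part of the channel through which secreted proteins enter the ER, was 3.07 ± 0.23 higher in liver. SRP9, a signal recognition particle protein, was the member lower in liver (−1.095 ± 0.311). Of 28 proteasome genes, 19 were lower in liver and 9 were not called (median −1.01), but with plain library sizes 8 were lower and 1 higher.

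**Figure D3:**
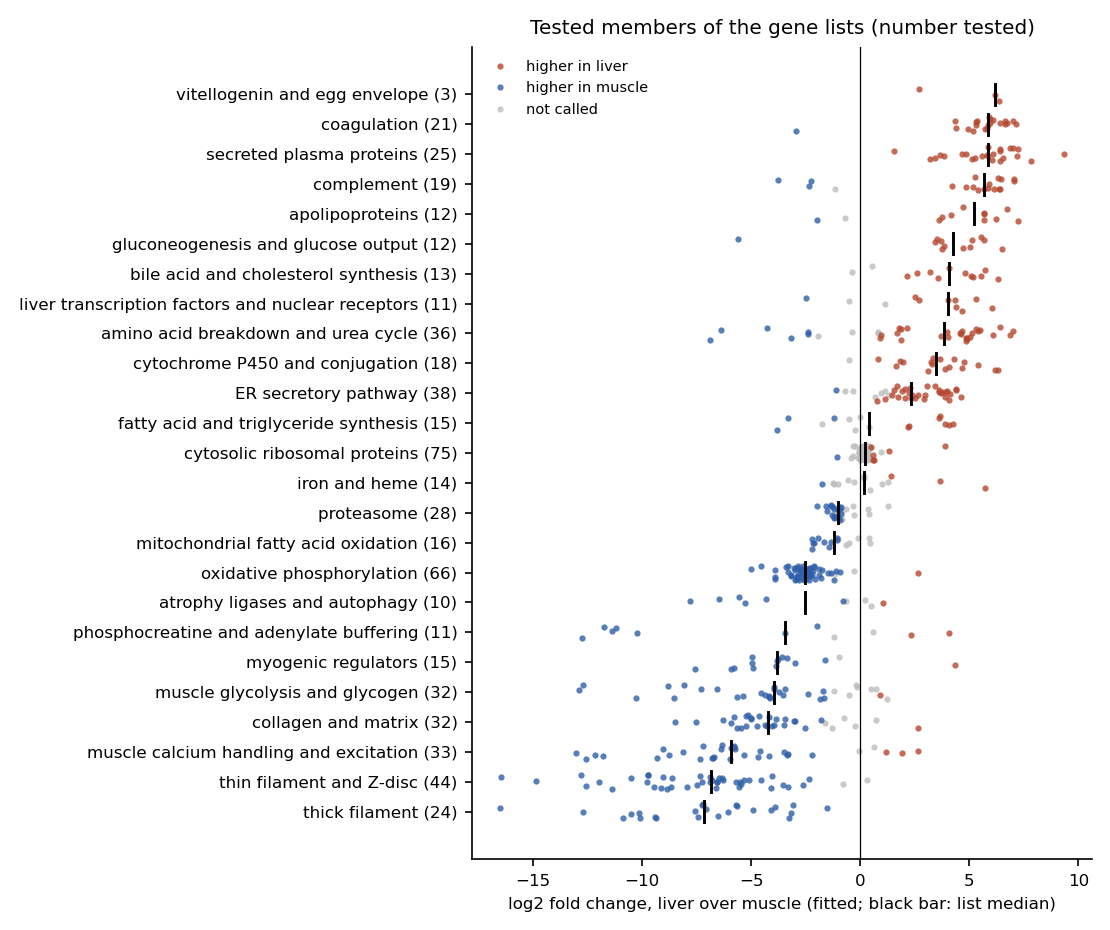
Fitted log2 fold change, liver over muscle, of every tested member of 25 gene lists, with the number tested in brackets, from the lists highest in liver at the top to those lowest at the bottom. Red points were higher in liver, blue points higher in muscle and grey points not called. The black bar is the list median, from 6.18 for the list named vitellogenin and egg envelope to −7.14 for the thick filament. The tested members of the former list were OL-VIT1, VTG3 and ESR1, and no egg envelope gene was among them. Points below −9 belong to genes with 0 to 3 counts in the 10 livers, and the fitted value of a gene at 0 is no bound.

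Some of the most counted muscle lines bear the name of a gene not known for muscle. MARK4A, a microtubule affinity kinase, had 0 counts in livers and 28490 to 46440 CPM in muscles (median 38770). In RefSeq the neighbours of mark4a include ckma, a muscle creatine kinase, and the deposited table has 0 lines named CKMA. KIAA1430 had 4 counts in livers and 9482 in muscles, and its RefSeq counterpart cfap97 neighbours slc25a4, the muscle ADP/ATP carrier, for which the table also has 0 lines. TAF13, a general transcription factor, had 10 counts in livers and 35168 in muscles, and its line on the minus strand of sgr15 (38285083 to 38287949) overlaps that of TNNC2, fast troponin C, on the other strand. NME2B.2, a nucleoside diphosphate kinase, had 0 counts in livers and 71030 to 139900 CPM in muscles (median 101600), at least 31700-fold higher in muscle, and overlapped no other line. The strand setting of the counting is not given in the sources used here, and whether counts of these lines come from a neighbour was not tested.

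Some enzymes and structural proteins are encoded by a liver-type and a muscle-type gene. Of 36 such families, 10 had the liver-type gene higher in liver and a muscle-type gene lower in liver, 18 did not show both, and 8 had no line for a side. In fructose bisphosphatase the liver-type share was 100% in every liver and 0 to 25% in muscles. In glycogen phosphorylase the share of PYGL was 50 to 100% in livers and 0 to 31.3% in muscles, without overlap. In glycogen synthase the share of GYS2 overlapped, at 0 to 100% in livers on 61 counts in all and 0 to 8.33% in muscles. In glucose transporters the share of SLC2A2, a low-affinity carrier, against SLC2A4, the insulin-responsive carrier, was 96.3 to 100% in livers and 0 to 17.7% in muscles. In creatine kinase and alpha-actinin it was 100% in every liver, against at most 1.34% and 0.545% in muscles. In methionine adenosyltransferase the share of MAT1A was 82.8 to 96.9% in livers and 5.88 to 52.9% in muscles.

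Other families did not show both directions. In enolase the share of ENO1A was 0 to 33.3% in livers (median 15.6%) and 10.1 to 24.0% in muscles (median 16.5%), so ENO3 held most counts in both tissues while both genes were lower in liver. FABP3, the heart-type fatty acid binding protein, was higher in liver (0.78 ± 0.21; edgeR adjusted p = 0.00140). PCK2, the mitochondrial phosphoenolpyruvate carboxykinase, had 31 counts in livers and 0 in muscles. GYG2, named the liver glycogenin in mammals, had 7 counts in livers and 156 in muscles, while GYG1B was 0.90 ± 0.25 higher in liver.

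**Figure D4:**
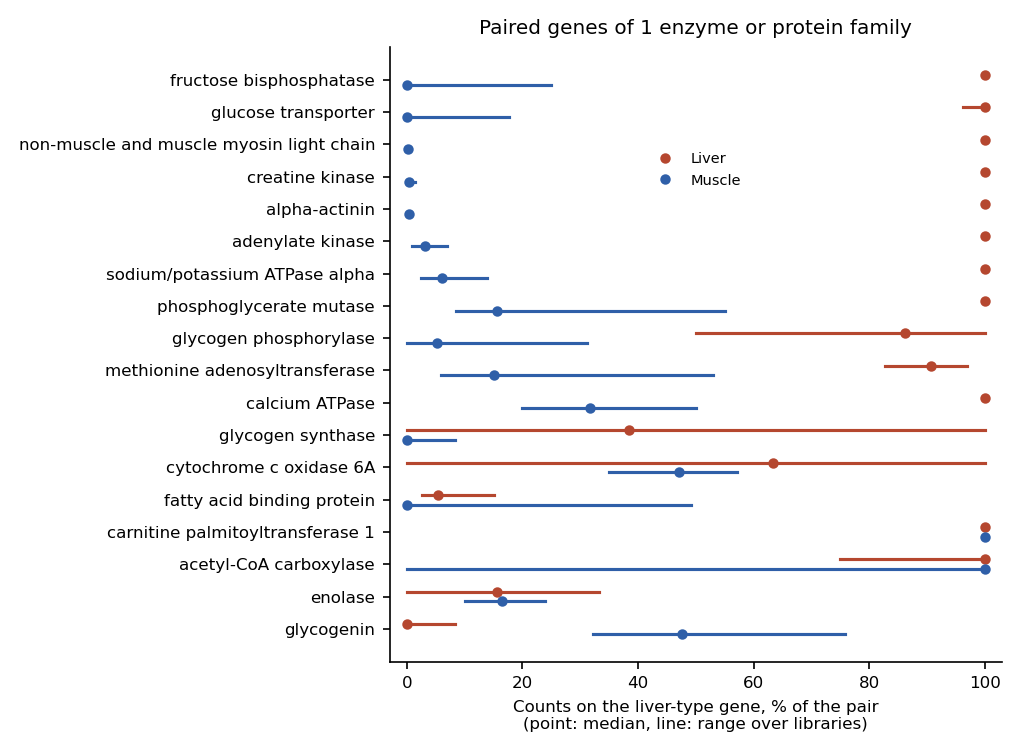
Share of a family's counts that fell on the liver-type gene, in percent of the counts of the family, as the median (point) and range (line) over the libraries with counts of the family, for livers (red) and muscles (blue). Fructose bisphosphatase, creatine kinase and alpha-actinin lie at or near 100% in livers and 25% or lower in muscles, whereas enolase overlaps and glycogenin is turned round.

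Counts of liver genes in muscle libraries and of muscle genes in liver libraries were unequal. Among 93 called liver-higher genes of at least 500 CPM in liver, the median muscle level was 1.93% of the liver level and 1 had 0 counts in muscles. Among 135 called muscle-higher genes of at least 500 CPM in muscle, the median liver level was 0.116% of the muscle level and 54 had 0 counts in livers. Livers were shallower (median 73427 counts, against 178054 in muscles), and the part of depth in these numbers at 0 was not tested. By mean shares, the level of the hepatocyte list in muscle was 1.24% of that in liver at 3 months and 0.269% at 1.5 months. The third muscle library of 3 months weighed on the first value, with a share of 0.137%. The other 4 had 0.00361 to 0.0475%, which overlapped the 0.00103 to 0.0284% at 1.5 months. For the exocrine pancreas list the muscle level was 5.42% of the liver level at 3 months and 0.984% at 1.5 months. Its muscle shares overlapped too, at 0.0203 to 0.202% and 0.0177 to 0.0634%. Among muscle libraries the third of 3 months had the highest share of vitellogenin lines, 1.56%, against 0.0266 to 0.471% in the other 4 of its group. Whether such counts were made in muscle, came with blood or tissue, or arose in the pools was not tested.

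**Figure D5:**
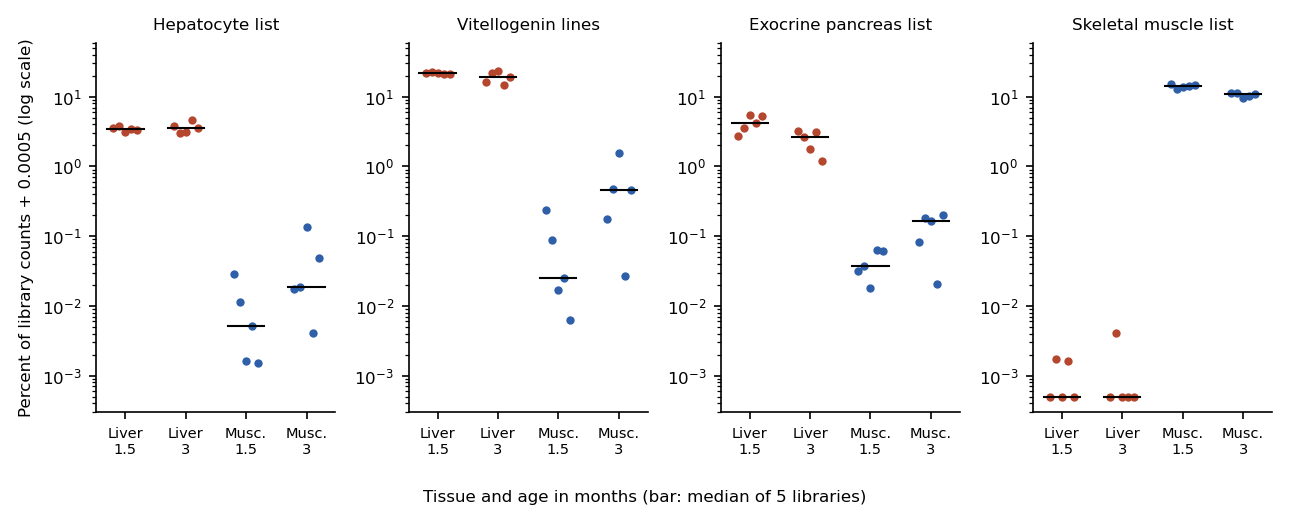
Percent of each library's counts, plus 0.0005, on a log scale for the hepatocyte list, the vitellogenin lines, the exocrine pancreas list and the skeletal muscle list, in livers (red) and muscles (blue) at 1.5 and 3 months, with a bar at the median of 5 libraries. Vitellogenin lines took 14.96 to 23.2% in livers and 0.00569 to 1.56% in muscles, while the skeletal muscle list had 0 counts in most livers.

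Few genes took a large share of the counts in both tissues. The 10 most counted genes took 40.5 to 51.8% of the counts in livers (median 49.0%), against 40.9 to 55.3% in muscles (median 49.4%), a difference of −1.05 percentage points by means (exact permutation test within age, two-sided, p = 0.496, adjusted over 3 measures p = 0.743). With the vitellogenin lines left out, the share became 32.0 to 39.0% in livers and 41.3 to 55.3% in muscles (−12.1 points). These lines were among the most counted of the livers only, so the direction of this change was fixed by leaving them out and is given with no test. The most counted genes that made up 50% of the counts numbered 7 to 30 in livers (median 12) and 8 to 27 in muscles (median 11; exact permutation p = 0.943, adjusted 0.943). After thinning each library to 28062 counts, 2391 to 2954 genes were detected in livers (median 2675), against 2275 to 3232 in muscles (median 2828; exact permutation p = 0.290, adjusted 0.743). A p of this size does not show that the tissues are alike in this.

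The comparison was then made within each age. At 3 months, 5288 genes were tested, of which 782 were higher in liver (14.8%) and 1734 higher in muscle (32.8%). At 1.5 months, 4909 were tested, of which 988 were higher in liver (20.1%) and 1178 higher in muscle (24%). Livers were shallowest at 3 months, at 28062 to 124113 counts, against 48679 to 180764 at 1.5 months, and the part of depth in these counts was not tested. Called at both ages were 1630 genes, 64.8% of the calls at 3 months and 75.3% of those at 1.5 months, and 1624 of them had the same direction. Of the 3410 calls over both ages, 2354 of the 2851 tested at 3 months and 1998 of the 2739 tested at 1.5 months were called again in the same direction, and 0 in the opposite one.

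In 6 genes the calls had opposite directions at the 2 ages. The 2 fits were not centred alike: the median over all tested genes was −0.85 at 3 months and −0.242 at 1.5 months, or −0.455 at 1.5 months with RLE factors. ACSF2 (2 OF 2), an acyl-CoA synthetase family member, measured 26.4 to 132 CPM in livers and 197 to 438 CPM in muscles at 3 months (−1.96; edgeR adjusted p = 3.05e-06). At 1.5 months it measured 99.6 to 260 CPM in livers and 26.4 to 66.2 CPM in muscles (2.14; edgeR adjusted p = 7.75e-06). The groups did not overlap at either age, and they changed places. PSAP, prosaposin of the lysosome, was at −1.49 at 3 months and 1.01 at 1.5 months. ACTB (1 OF 2), beta-actin, was at −1.14 at 3 months and 0.40 at 1.5 months, and GLUD1B, glutamate dehydrogenase, at −1.18 and 0.59 in the same order. The other 2 were lines without a name, Nfu_g_1_011626 (−0.94 at 3 months, 0.68 at 1.5 months) and Nfu_g_1_017699 (1.32 at 3 months, −2.08 at 1.5 months). At 1.5 months the libraries of the genes other than ACSF2 (2 OF 2) overlapped, with ACTB (1 OF 2) at 1594 to 2940 CPM in livers and 1765 to 2400 CPM in muscles. The part of the scaling in these opposite calls was not tested. In the direct test of the change with age, ACSF2 (2 OF 2), PSAP and Nfu_g_1_017699 were called, whereas ACTB (1 OF 2) (edgeR adjusted p = 0.247), GLUD1B (0.0989) and Nfu_g_1_011626 (0.372) were not.

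The change of the tissue difference with age was tested directly over the 7142 genes. The liver-over-muscle fold was larger at 3 months than at 1.5 months for 1 gene (0.014%) and smaller for 24 (0.336%), and 527 genes had an unadjusted p under 0.05. The median change over all tested genes was −0.242 on the log2 scale, but 0.068 with RLE factors and 0.277 with DESeq2, so its sign depended on the processing. With RLE factors 0 genes were larger and 2 smaller, and with DESeq2 8 were larger and 20 smaller. ACSF2 (2 OF 2) had the lowest adjusted p (−3.81 ± 0.52; edgeR adjusted p = 2.85e-06). CALCOCO2, an autophagy receptor in mammals, was at −3.84 ± 0.74 (edgeR adjusted p = 0.00448), with 136.5 to 193 CPM in muscles at 3 months and 26.4 to 43.1 CPM at 1.5 months. Exocrine pancreas markers gave 7 of the 24, of 17 tested. TRY, trypsin, measured 1929 to 7117 CPM in livers at 3 months (median 2610), against 3273 to 9901 CPM at 1.5 months (median 9260). In muscles TRY measured 37.6 to 513 CPM at 3 months (median 292), against 44.1 to 136 CPM at 1.5 months (median 111), and its change of the tissue difference was −2.71 ± 0.55 (edgeR adjusted p = 0.0122). OL-VIT1 measured 207 to 11830 CPM in muscles at 3 months (median 3984), against 79.7 to 2679 CPM at 1.5 months (median 306), with a change of −3.18 ± 0.75 (edgeR adjusted p = 0.0317). Leaving out single libraries gave 3 to 49 calls instead of 25, with 10 without the third muscle library of 3 months, and the 2 genes called whichever library was left out were ACSF2 (2 OF 2) and CALCOCO2. Among the 25, ACSF2 (2 OF 2) was the one also called with RLE factors, plain sizes, genes over 1% left out and DESeq2. After thinning neither of the 2 was called (edgeR adjusted p = 0.0769 for ACSF2 (2 OF 2) and 0.251 for CALCOCO2).

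The tissue difference of germ cell-removed females was set beside that of control females in a fit of all 40 female libraries, with 9800 genes tested. CPM values of this comparison, here and in the next paragraph, are scaled by TMM factors of the 40 libraries. The values of control libraries therefore differ from those given above. The liver-over-muscle fold was larger in germ cell-removed females for 427 genes (4.36%) and smaller for 21 (0.214%). The median change over all tested genes was 0.77 on the log2 scale, 0.47 with RLE factors in edgeR, where 134 genes were larger and 27 smaller, and 0.09 with DESeq2, which also changes the test, where 217 were larger and 89 smaller. By the column names all germ cell-removed livers were sampled and the control livers were not, and they held 163968 to 256671 counts in germ cell-removed and 28062 to 180764 counts in control females, so treatment and read sampling cannot be told apart in liver. In muscle, replicates 4 and 5 of germ cell-removed females at 1.5 months were also not sampled (129246 and 80573 counts), whereas the other muscles were. After thinning all libraries to 1 depth, 47 genes were larger and 1 smaller. Leaving out single libraries gave 132 to 533 calls. Of the 427, 231 were higher in muscle in control females, 84 were higher in liver, 92 were not called and 20 were not tested there. Of all 7142 genes tested in control females, 32.3% were higher in muscle and 15.5% higher in liver. The same control libraries enter both calls, so this split is not independent of the change and no conclusion is drawn from it. UGP2A, which makes UDP-glucose for glycogen, measured 857 to 1505 CPM in livers of germ cell-removed females (median 1202), against 121 to 429 CPM in livers of control females (median 184). In muscles UGP2A measured 1388 to 2896 CPM in germ cell-removed and 1429 to 2282 CPM in control females, a change of 2.33 ± 0.27 (edgeR adjusted p = 3.64e-09). ENO3, GAPDH, GLUD1B, ENO1A and JUNBA, an AP-1 factor, had changes of 2.05 to 2.49. GYG1B, a glycogenin, changed by −2.41 ± 0.35 (edgeR adjusted p = 1.22e-06). ESR1 on line Nfu_g_1_018712 changed by −3.04 (edgeR adjusted p = 2.02e-04), with 0 to 39.1 CPM in livers of germ cell-removed females (median 14.0), against 65.1 to 191 CPM in livers of control females (median 136).

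By list, 28 of 67 tested genes of oxidative phosphorylation, 11 of 21 exocrine pancreas markers, 9 of 33 glycolysis genes and 8 of 34 collagen and matrix genes had a larger liver-over-muscle fold in germ cell-removed females. In the glycolysis list 1 gene had a smaller fold. Over all tested genes 4.36% were larger. The list medians were 0.993, 2.322, 0.767 and 1.111 in that order, beside 0.771 over all tested genes, so the glycolysis list lay at the general shift. These 4 lists did not stand alone. Medians were 1.912 for coagulation (4 of 24 larger), 1.908 for hepatocyte markers (6 of 17) and 1.891 for apolipoproteins (5 of 15). Amino acid breakdown had a median of 1.369 (9 of 42). Lists below the general shift included the ER secretory pathway (0.15) and the thick filament (0.204). OL-VIT1 lay lower in both tissues of these females, without overlap. It measured 54.6 to 144 CPM in livers of germ cell-removed females, against 79630 to 213500 CPM in livers of control females. In muscles it measured 0 to 24.0 CPM in germ cell-removed and 74.2 to 12330 CPM in control females. Its tissue difference was not shown to change (−1.53; edgeR adjusted p = 0.626), on 7 counts in the muscles of germ cell-removed females.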

How the data were processed

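RNA of liver and muscle was profiled by bulk RNA barcoding and sequencing (BRB-seq), in which each sample is reverse transcribed with its own barcode and UMI, samples of a tissue are pooled and amplified, and 3′ fragments are sequenced. The authors demultiplexed the reads, trimmed them with Trim Galore 0.6.7, mapped them with HISAT2 2.2.1 to the killifish genome (GRZ assembly), assigned them to genes with featureCounts 2.0.1 and removed UMI duplicates per gene with UMI-tools. The deposited values are raw UMI counts per gene, without normalization. The table holds 80 sample columns, of which 40 female ones were used and 40 male ones were not used here. The 1877 lines without a gene identifier held 0% of the counts of these libraries and were left out.

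Genes with at least 10 counts over the libraries compared were tested in edgeR 4.0.16 (R 4.3.3) with TMM factors and the quasi-likelihood F test, age as covariate and Benjamini-Hochberg adjustment at 0.05. SEs are the fitted difference divided by the square root of F. Changes with age or treatment were interaction terms. Library concentration was compared by exact permutation within age (Python 3.11.15, scipy 1.17.1). Intervals on counts are 95% and, like the floor of 3 counts, cover counting error only. The fits were tested on simulated counts. Alternatives were other scalings, count filters, thinning, DESeq2 1.42.0, a replicate block and leaving out each library. Libraries of a group came from separate individuals per the methods of the study.

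The members, gene lists and family pairs were chosen with earlier results of these data known. Genes were named by fixed rules. From called genes with a symbol came, in each direction, the 12 most counted without overlap and the 4 of lowest adjusted p. The 6 of lowest adjusted p of each interaction were also taken from called genes with a symbol. The other rules named genes over 1% of a library, the family pairs, and up to 4 members of each list plus members called against it. DND, VASA and ESR1 were named as well. PSAP, Nfu_g_1_011626, Nfu_g_1_017699 and KIAA1430, the first 3 as parts of a small count, were added after their values were seen. Results of a few listed genes and of 1 family pair are not reported here. RefSeq was used for names and neighbours only.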

Additional observations from a re-analysis of the deposited data

Results flagged for a closer look

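Over 55 combinations of a tissue, an age and a measure, each with 5 libraries, 11 had a library far from the other 4. Chance gives about 1 in 20 only for independent, normally distributed values. Some of these measures are small shares that rest on 1 count, and several of the 11 come from the same library. The number 11 therefore cannot be compared with that rate and does not show an excess over chance. The intervals are 95% Wilson intervals and cover counting error only.

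Egg envelope lines took 9.466% (9.305 to 9.63) of the counts of liver replicate 4 at 3 months, against 11.72 to 12.44% in the other 4 livers. In livers, oocyte and germ cell markers took 0.002054% (0.0003626 to 0.01164) in replicate 1 at 1.5 months and skeletal muscle markers took 0.003564% (0.0006291 to 0.02018) in replicate 2 at 3 months, 1 count each, with 0 in the others.

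Muscle replicate 2 at 1.5 months stood apart in 3 measures. Oocyte and germ cell markers took 0.0474% of its counts (0.03777 to 0.0595), against 0 in the other 4, 50% of its counts lay on 12 genes, against 8 in each of the others, and 3232 genes were detected after thinning, against 2275 to 2509. H1M, an oocyte linker histone, had all 34 of its muscle counts in this library, and ZAR1, an oocyte maternal-effect gene, 22 of 23, with 0 counts in livers, so that their calls as higher in muscle rest on it. FABP1, the liver fatty acid binding protein, had 94 counts there and 4 or fewer in each of the other muscles, with 70 counts in the 10 livers, and was not called (0.31), whereas without this library it was higher in liver (3.16; edgeR adjusted p = 8.32e-09).

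Muscle replicate 3 at 3 months had 1.56% of its counts on vitellogenin lines (1.504 to 1.618), against 0.02659 to 0.4706% in the others, and 0.6379% on egg envelope lines (0.6022 to 0.6757), against 0.006309 to 0.1452%. In muscle replicate 1 at 1.5 months egg envelope lines took 0.09749% (0.08313 to 0.1143), against 0.004032 to 0.02626%. Oxidative phosphorylation genes took 2.284% (2.215 to 2.355) in muscle replicate 3 at 1.5 months, against 1.971 to 2.024%. Endocrine pancreas markers took 0.005149% (0.002709 to 0.009787) in muscle replicate 5 at 3 months, against 0.000473 to 0.001071%.

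The tissue difference itself differed between groups by an interaction test in edgeR: 25 genes differed between 3 and 1.5 months, and 448 between germ cell-removed and control females.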

How the results depend on the processing

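Of 3410 calls over both ages, 2473 (1008 higher in liver, 1465 in muscle) were also called with RLE factors, plain library sizes, genes over 1% left out and DESeq2. DESeq2 gave 267 of the 3410 no adjusted p, and these are not among the 2473. Whichever library was left out, 2754 were called (3284 to 3463 calls). Whether equal numbers in the column names mark 1 fish is not stated, and the main fit treats the libraries as unpaired. Deviations of same-numbered libraries correlated at −0.082 to 0.114 over 381 genes (median 0.048, against −0.006 for other numbers), with 3 of 10 over 0.1. Of 10 livers, 4 correlated best with their own number. Correlations this weak cannot decide whether the tissues are paired. The fit with a replicate block gave 3225 calls, 3197 of them shared. The filter filterByExpr, which tested 1391 genes, gave 1223 calls, and 789 at 1.5 and 849 at 3 months. Thinning gave 1585, 1292 and 1052 calls. The share of calls higher in liver went to 44.7% with plain sizes and 45.1% after thinning, against 32.4%. At 3 months it went to 43.7% with plain sizes and 44.2% after thinning, against 31.1%, and at 1.5 months to 37.2% with every counted gene, against 45.6%.

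The 25 changes with age became 2 with RLE factors, 66 with every gene of 1 count or more, 10 with filterByExpr, 13 after thinning and, in an alternative added after seeing the data, 8 with the newer quasi-likelihood fit, while the replicate block gave 28. Without single libraries they ranged from 3 to 49: 9 and 12 without liver replicates 2 and 4 of 1.5 months, 15 and 41 without liver replicates 2 and 4 of 3 months, 49, 8, 9 and 14 without muscle replicates 2, 3, 4 and 5 of 1.5 months, and 10, 49 and 3 without muscle replicates 3, 4 and 5 of 3 months. The 448 changes with treatment became 161 with RLE factors, 227 with every counted gene, 246 with filterByExpr, 224 with plain sizes and 48 after thinning, and 132 to 533 without single libraries: 132 without control liver replicate 2 or 3 of 3 months, 208 without control muscle replicate 2 of 1.5 months, 132, 152 and 143 without germ cell-removed liver replicates 1, 2 and 4 of 1.5 months, and 175, 150, 161, 145 and 147 without germ cell-removed liver replicates 1 to 5 of 3 months. With each of RLE factors, plain sizes, genes over 1% left out and DESeq2, 116 were called. DESeq2 gave 130 of the 448 no adjusted p, and these are not among the 116. Whichever library was left out, 101 were called.

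Leaving out vitellogenins moved the share of the 10 most counted genes to −12.14 points and the genes holding 50% of counts to +23.6, directions fixed by leaving out liver genes. The second difference, 0.3, went to −1.511 without liver replicate 4 of 3 months and to 1.811 without muscle replicate 3 of 3 months. Of the 218 named genes in 32 fits, 93 calls were lost, 101 were gained and 69 values changed sign without a call on either side. RPLP0, not called at first, changed sign with a call, to 0.417 with plain sizes (edgeR adjusted p = 0.00474). Depth limits the liver side: a gene at 0 in the shallowest liver could lie at 107 CPM by its plain library total. The TMM factor of that library was 2.18, so the limit is lower on the TMM scale.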
